A study of Mus musculus with 15 samples.

Results

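The 36 genes described here cover glycolysis and the response to low oxygen. They were taken from the count table by symbol and comprise 17 glycolytic enzymes, 3 regulators of glycolytic flux, 4 glucose and lactate transporters, the transcription factor subunit Hif1a with 2 prolyl hydroxylases, and 9 genes known as HIF1 targets. They are 36 of the 40402 genes of the table, and 35 of them were among the 17594 genes with at least 1 CPM (the standard unit that scales counts to library size) in at least 1 library. Expression was measured by bulk RNA-seq in 4T1 cells, a mouse mammary carcinoma line grown in RPMI1640 with serum and wild type by its label. The 5 conditions were untreated cells, cells given blackberry extract (BLA) or blueberry extract (BLU), and cells given gold nanoparticles made with either extract (BLA-A and BLU-A), all added 24 hours after seeding. The study used 1 concentration for the treatments, and the labels do not give the time of harvest.

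Glycolysis splits glucose into pyruvate in the cytosol, and many tumour cells turn that pyruvate into lactate and export it even when oxygen is present. When oxygen is low, prolyl hydroxylases no longer mark the HIF1 alpha subunit for destruction. HIF1 then binds short DNA cores known as hypoxia response elements and raises the transcription of glucose transporters, glycolytic enzymes and genes for angiogenesis, pH control and collagen modification. HIF1 alpha is controlled mainly at the level of its protein, which RNA-seq does not measure.

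Each condition held 3 columns whose counts differed by less than the sampling noise, with a chi-square per degree of freedom between 0.0951 and 0.475, and the supplement of the study lists 1 raw read total per condition with 3 read subsets under it, while the labels and methods count them as replicates. They were averaged and counted as 1 sample, so every fold change below compares 2 libraries and has no replicate check or p-value. Column totals ran from 25611976 to 26957141 counts, and 3 counts corresponded to 0.111 to 0.117 CPM. Levels are CPM after TMM normalization, and 0.5 was added to them before log2 fold changes were computed. Intervals and floors cover counting error only. Each of the 15 columns carries its own batch label, so batch and treatment cannot be told apart. Of 9 mammary epithelial markers, 7 reached 1 CPM, and their summed level ran from 880.9 CPM in BLA to 1644 CPM in BLA-A. The sums were 87.4 to 103.7 CPM for 5 fibroblast markers, of which Pdgfra made up at least 86.2 CPM and Lum was at 0. They were 8.41 to 11.1 CPM for 5 leukocyte markers, and 2.94 to 7.05 CPM for 4 endothelial markers. Fewer cells of a type and less RNA per cell cannot be told apart in bulk samples.

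The cores that HIF1 is known to bind were searched in the RefSeq promoters of the members, as ACGTG or GCGTG on either strand within the 250 bases before the RefSeq start. Overlapping matches were counted separately. Of the 36 genes, 34 had at least 1 RefSeq window and Ndrg1 and Slc2a3 had none. A core was present in 39 of their 50 windows (78%), against 38.6% of all 32851 RefSeq windows of the same length. Of the 9 HIF1 targets among them, 8 had windows, and 8 of their 11 windows held a core (72.7%), a lower share than that of all members. Of 29 genes in a separate list of HIF targets, 20 had windows, and 22 of their 31 windows held one (71%). The set of all RefSeq windows was not matched to these genes for base composition. The 30 bases with the most cores are printed for 4 members past the fold threshold used below in at least 1 treatment, on GRCm38.p6 with the cores in capitals. They are Car9 at chr4:43506996-43507025 (plus strand), P4ha2 at chr11:54100838-54100867 (plus strand), Ankrd37 at chr8:45999987-46000016 (minus strand) and Slc2a1 at chr4:119108684-119108713 (plus strand), each written 5′ to 3′ on the strand of the gene.
Car9: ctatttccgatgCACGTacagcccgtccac
P4ha2: catcgcatACGTGcagcGCGTGgcggctcg
Ankrd37: ccttcactgcgCACGCGTGctgcggccgcc
Slc2a1: CACGCctctcagagtcccgccccggACGTG
In all, the 250 bases of Car9 held 1 core, those of Slc2a1 2, those of P4ha2 3 and those of Ankrd37 4. Tpi1 had 0 in this window. A GENCODE M39 transcript of the same gene started inside each of these windows, 60, 34, 129 and 24 bases before the RefSeq start in Car9, Slc2a1, P4ha2 and Ankrd37. Of the cores, 1, 1, 3 and 1 reached that start or lay after it. In Slc2a1 it was the printed ACGTG, which spans the start. A match of these letters is a description and not a bound site.

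Most members were higher in cells treated with blackberry than in untreated cells with TMM scaling, and their median was higher with the nanoparticles than with the extract. Not every member followed that order: Pdk1, Eno1, Kdm3a and Pgk1 were among those lower in BLA-A than in BLA. A log2 fold change of more than 1 in either direction served as the threshold. In BLA-A, 10 of 35 members were higher and 1 was lower than in untreated cells past it, 31.4% of them. The background was 20.9% of all genes kept (8.55% higher, 12.3% lower). Adm, among the 10, was kept by the filter through BLA-A alone. In BLA, 4 were higher and 1 lower (14.3% of members), against 16.4% of all genes (7.91% higher, 8.51% lower), so the share past this threshold did not exceed the background. In BLU 3 were lower and 0 higher (10.3% of all genes were past it, 5.64% higher and 4.62% lower). In BLU-A 0 were past it (7.88% of all genes, 3.39% higher and 4.49% lower). The median log2 fold change of the members was 0.40 in BLA, 0.68 in BLA-A, -0.07 in BLU and -0.04 in BLU-A, where the medians of all genes were -0.01, -0.01, -0.01 and 0.00. In both blackberry libraries 28 of 35 members lay above 0 (80%), against 49.0% of all genes in BLA and 49.2% in BLA-A. These numbers depended on scaling: above 0 lay 25 members in each with scaling by total counts (46.7% and 39.1% of all genes), and 5 and 10 with scaling to Gapdh, itself a member (11.6% and 11.2% of all genes). Scaled to Gapdh, the members' medians were -0.49 in BLA and -0.33 in BLA-A, and those of all genes -0.90 and -0.91. The same counts were taken among genes of higher level. Among the 28 members with a mean of at least 10 CPM, 2 were past the threshold in BLA and 9 in BLA-A, and 0 with either blueberry treatment. The shares of the 9770 genes at that level were 5.21% in BLA, 12.6% in BLA-A, 2.38% in BLU and 0.86% in BLU-A.

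**Figure D1:**
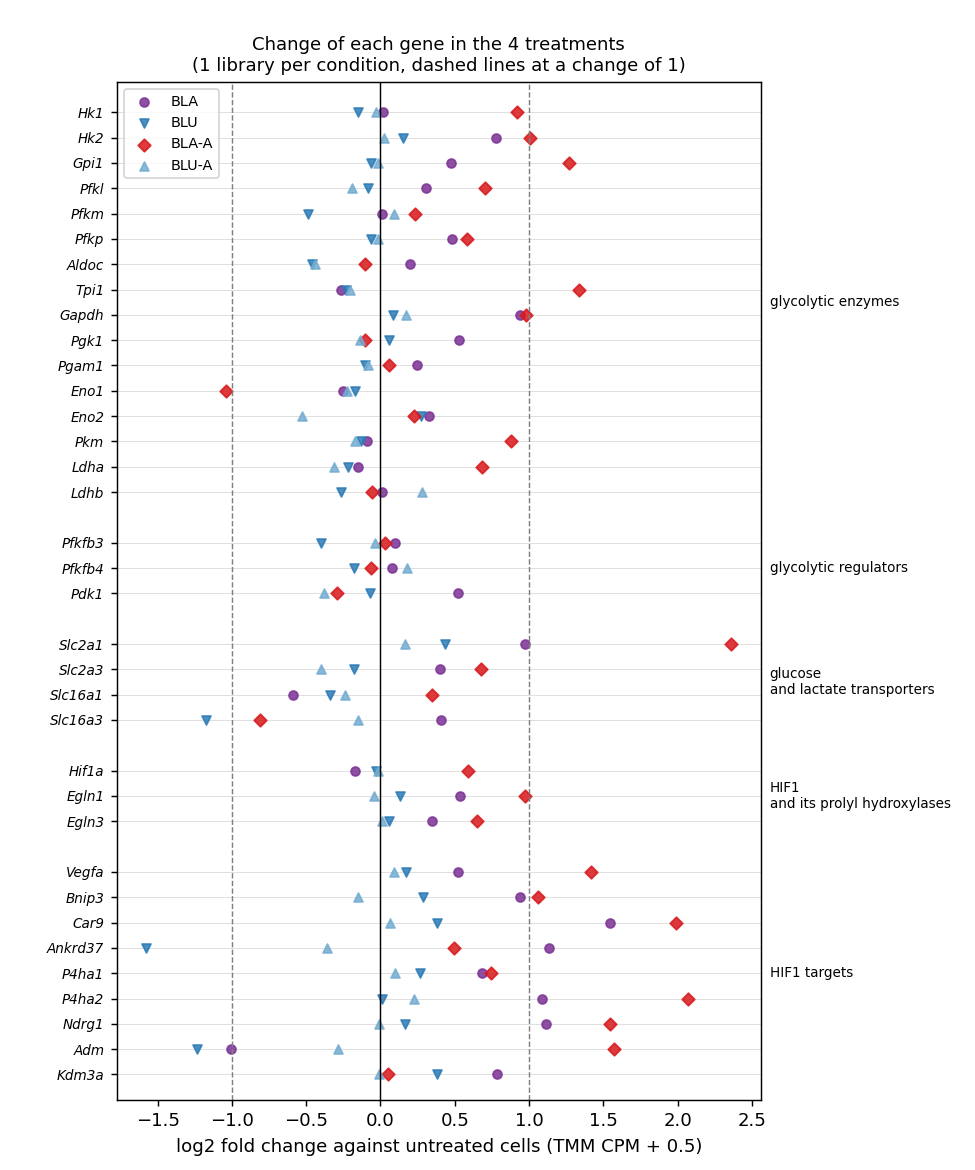
Log2 fold change against untreated cells (x axis, TMM CPM plus 0.5) of the 35 members kept, 1 row per gene grouped by role, with 1 point per treatment and 1 library per condition. The BLA-A points lie farthest right for most of the HIF1 targets and for Slc2a1 at 2.36, and every BLU-A point lies between -0.53 and 0.28.

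The quasi-likelihood test of edgeR set the 4 treated libraries against the untreated one and called 0 of 35 members at an adjusted p of 0.05 (Benjamini-Hochberg over 17594 genes). It called 4 genes of the table (0.0227%). At an unadjusted p under 0.05 the count was 0 members and 478 genes. The edgeR likelihood ratio test and the DESeq2 Wald test on the same 5 libraries also called 0 members, with 0 at an unadjusted p under 0.05 in each. With 1 untreated library, a count of 0 does not show that the members were unchanged. The smallest unadjusted p was 0.169, for Car9, whose log2 fold change was 1.33 with a standard error of 0.87. The spread in this test is the spread between treatments, with a biological coefficient of variation of 0.451. Across the 4 treatments 8 members were higher in all 4 libraries and 1, Eno1, was lower in all 4. BLA-A held the largest change in size for 22 members, BLA and BLU for 5 each and BLU-A for 3.

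Among the groups by role, HIF1 targets had the highest median log2 fold change in BLA and in BLA-A. All 9 were above untreated cells in BLA-A (8 with scaling by total counts and 6 with scaling to Gapdh). Past the threshold in BLA-A were 6 of the 9, all higher (66.7%, against 8.55% of all genes higher). Adm, among these 6, reached 1 CPM in BLA-A alone, so the filter kept it only through the library where it was high. In BLA 8 of 9 were above (4 with scaling to Gapdh). Past the threshold in BLA were 4 higher and 1 lower, Adm (55.6%, against 16.4% of all genes in either direction). The 9 targets had a median log2 fold change of 0.94 in BLA, 1.42 in BLA-A, 0.17 in BLU and -0.01 in BLU-A. Car9 (chr4:43506966-43513729 on GRCm39, as all gene positions here), which encodes a membrane carbonic anhydrase that regulates pH at the cell surface, stood at 3.24 CPM in untreated cells, 10.4 in BLA, 14.3 in BLA-A, 4.38 in BLU and 3.41 in BLU-A. Both blackberry libraries were well above the other 3, which lay close together. These levels rest on 86 counts in untreated cells, 284 in BLA, 332 in BLA-A, 120 in BLU and 90 in BLU-A. The log2 fold change was 1.55 in BLA, with a 95% counting interval of the ratio from 1.34 to 2.06, and 1.99 in BLA-A, from 1.80 to 2.51.

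P4ha2 (chr11:53981553-54022494) and P4ha1 encode catalytic subunits of collagen prolyl 4-hydroxylase. P4ha2 was measured at 10.4 CPM in untreated cells, 22.7 in BLA, 45.3 in BLA-A, 10.5 in BLU and 12.3 in BLU-A, with log2 fold changes of 1.09 in BLA and 2.07 in BLA-A. The blueberry libraries stayed near the untreated level. P4ha1 was above untreated cells in all 4 treatments, by 0.68 in BLA, 0.74 in BLA-A, 0.27 in BLU and 0.10 in BLU-A, and did not pass 1 in any. Ndrg1 (chr15:66801166-66841835), a stress-responsive gene linked to differentiation and metastasis, had 161.1 CPM in untreated cells, 349.5 in BLA, 471.4 in BLA-A, 180.5 in BLU and 159.6 in BLU-A. It was the most abundant of the 9 targets, and its blackberry values (log2 fold changes of 1.11 and 1.55) rest on 9505 and 10907 counts.

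Vegfa (chr17:46327919-46343309), the main angiogenic growth factor, was at 92.9 CPM in untreated cells, 133.5 in BLA, 249.1 in BLA-A, 104.7 in BLU and 98.9 in BLU-A. Only the BLA-A library passed the threshold for this gene, at 1.42. Bnip3 (chr7:138490690-138511253), a mitochondrial protein with a role in mitophagy and cell death, stood at 41.0 CPM in untreated cells, 79.1 in BLA, 85.9 in BLA-A, 50.1 in BLU and 36.8 in BLU-A. The blackberry libraries were again the 2 highest, at 0.94 and 1.06 on the log2 scale above untreated cells. With scaling by total counts the BLA-A value of Bnip3 was 0.86. Kdm3a, a histone H3 lysine 9 demethylase, differed from this order: BLA was at 0.79 and BLU at 0.38, and BLA-A was at 0.05, or -0.14 with scaling by total counts.

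The other 2 targets had lower counts in several libraries. Ankrd37 (chr8:46449939-46458744), an ankyrin repeat protein, had 77 counts in untreated cells (2.91 CPM), 190 in BLA (6.99 CPM), 100 in BLA-A (4.31 CPM), 18 in BLU (0.642 CPM) and 57 in BLU-A (2.15 CPM). It was past the threshold in opposite directions in the 2 extracts, at 1.14 in BLA and -1.58 in BLU, with counting intervals of the ratio from 0.88 to 1.67 and from -2.97 to -1.39. Its span is covered over 73.0% by Lrp2bp and over 25.1% by Ufsp2 on the opposite strand, whose log2 fold changes were 0.61 and -0.25 in BLA and 0.89 and -0.13 in BLU. The counting was stated to use strand. Adm (chr7:110226858-110229027), which encodes the vasodilator peptide adrenomedullin, had 18 counts in untreated cells, 2 in BLA, 69 in BLA-A, 0 in BLU and 12 in BLU-A. The counting interval of the BLU ratio, from 0 counts, ended at -2.18 on the log2 scale. Adm was higher in BLA-A, with a log2 fold change of 1.57 and a counting interval of the ratio from 1.38 to 2.98. The BLA ratio, from 2 counts, had a counting interval on the log2 scale from -6.35 to -1.14. The lncRNA gene Gm28863 covers all of Adm on the opposite strand and had a log2 fold change of 1.62 in BLA-A.

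**Figure D2:**
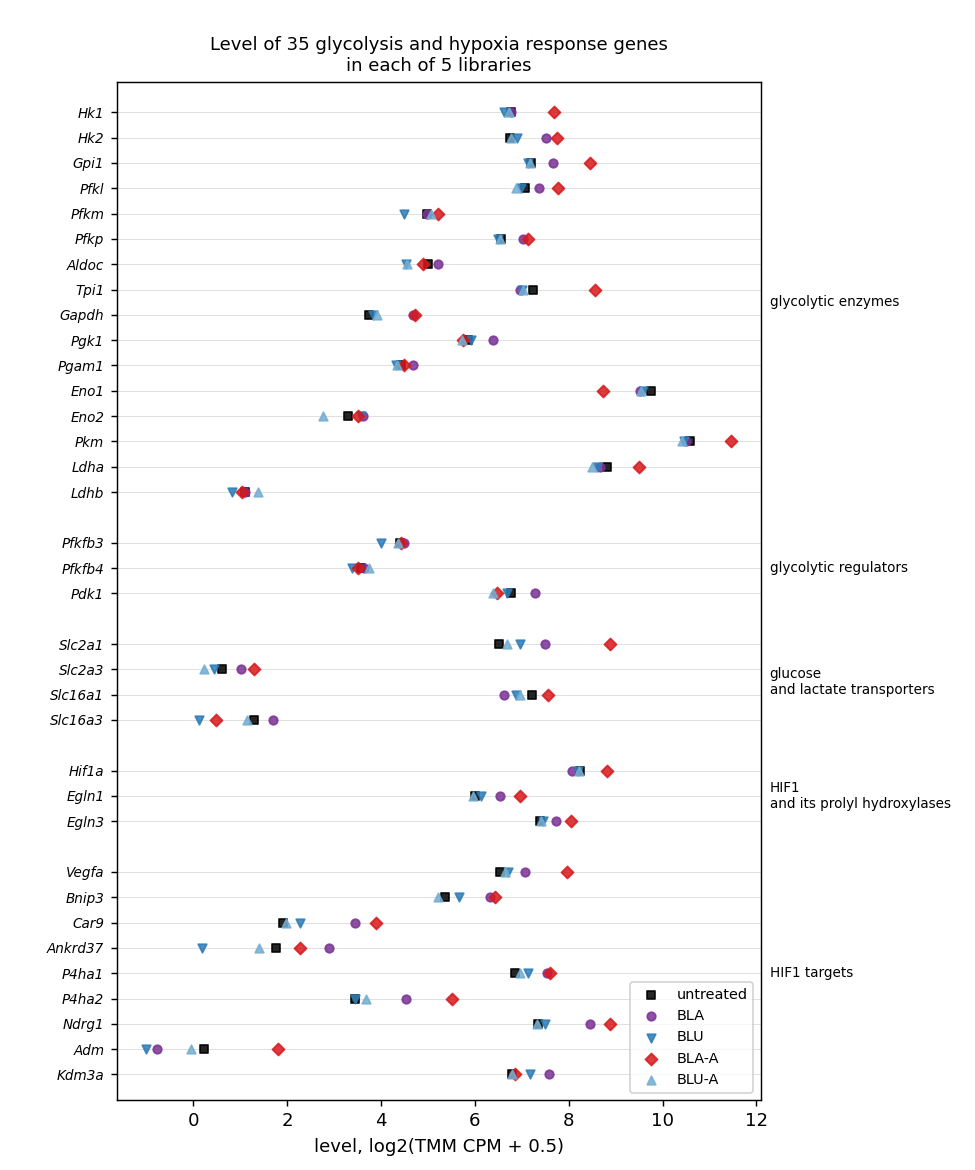
Level of each of the 35 members kept in each of the 5 libraries, as log2 of TMM CPM plus 0.5 on the x axis, grouped by role. Among HIF1 targets such as Car9, P4ha2, Ndrg1 and Bnip3 the 2 blackberry libraries lie to the right and the untreated and BLU-A libraries nearly coincide, and for the abundant enzymes Pkm, Ldha and Tpi1 only the BLA-A library lies to the right.

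Among the transporters, Slc2a1 had the largest fold change of all 35 members. Slc2a1 (chr4:118965908-118996365) encodes GLUT1, the main basal glucose transporter of most cells. Its level was 91.5 CPM in untreated cells, 179.6 in BLA, 472.0 in BLA-A, 123.6 in BLU and 102.5 in BLU-A. All 4 treated libraries lay above the untreated one, with BLA-A 5.13-fold above it (log2 fold change 2.36, counting interval of the ratio 2.30 to 2.43) and BLA at 0.97, just inside the threshold. The lncRNA gene Gm12867 lies in 2.33% of the Slc2a1 span on the opposite strand and was also higher in BLA-A, at 55.8 CPM against 5.80 in untreated cells, but not in BLA, at 3.62 CPM.

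Slc2a3, which encodes the high-affinity transporter GLUT3, was near the limit of the counts at 18 to 45 per library, and its log2 fold changes lay between -0.40 and 0.68. Slc16a1 (chr3:104545811-104565780) encodes the lactate transporter MCT1 and was measured at 147.5 CPM in untreated cells, 98.1 in BLA, 187.4 in BLA-A, 116.3 in BLU and 124.7 in BLU-A. It was below untreated cells in 3 treatments and above them in BLA-A, and did not pass 1 in any. Slc16a3 (chr11:120838846-120851694), which encodes the lactate exporter MCT4, had 52 counts in untreated cells, 74 in BLA, 21 in BLA-A, 16 in BLU and 45 in BLU-A. Its log2 fold change was -1.18 in BLU and -0.81 in BLA-A. Csnk1d covers 61.3% of its span on the opposite strand at 108.3 CPM in untreated cells.

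Of 16 glycolytic enzymes kept, 3 were higher and 1 lower past the threshold in BLA-A (25%, against 20.9% of all genes) and 0 in each of the other 3 treatments, with medians of 0.22 in BLA, 0.63 in BLA-A, -0.12 in BLU and -0.11 in BLU-A. Hk2 (chr6:82699740-82751469), the hexokinase isoform raised in many tumours, was at 106.8 CPM in untreated cells, 183.6 in BLA, 215.0 in BLA-A, 118.9 in BLU and 108.7 in BLU-A. Its fold change in BLA-A, 2.01, lies at the threshold. With scaling by total counts its log2 value was 0.81, a setting that moved genes in BLA-A by a median of -0.19. Hk1, the more widely expressed isoform, was at 0.92 in BLA-A and between -0.15 and 0.02 in the other 3 treatments. Gpi1 (chr7:33900755-33929780), which interconverts glucose and fructose 6-phosphates, had 145.8 CPM in untreated cells, 202.4 in BLA, 352.4 in BLA-A, 139.7 in BLU and 143.7 in BLU-A, a log2 fold change of 1.27 in BLA-A.

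The phosphofructokinase genes Pfkl, Pfkm and Pfkp, whose product catalyses the committed step, had values of 0.70, 0.23 and 0.58 in BLA-A and 0.30, 0.01 and 0.48 in BLA, all inside the threshold. Tpi1 (chr6:124787549-124791273), which interconverts the triose phosphates, stood at 150.0 CPM in untreated cells, 124.8 in BLA, 379.6 in BLA-A, 127.8 in BLU and 129.9 in BLU-A. Its BLA-A library was at a log2 fold change of 1.34 while the other 3 treated libraries were slightly below untreated cells. The aldolase Aldoc, the phosphoglycerate kinase Pgk1 and the mutase Pgam1 lay between -0.46 and 0.53 in the 4 treatments.

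The 5 members with the highest level per kilobase of gene span in untreated cells were Pkm, Eno1, Tpi1, Ldha and Slc16a1, at 66.1, 54.4, 40.3, 31.8 and 7.39 CPM per kilobase. Per kilobase of exons, the order was Pkm, Ldha, Eno1, Egln3 and Tpi1. Pkm (chr9:59563364-59586663), the pyruvate kinase that yields pyruvate, was at 1541 CPM in untreated cells, 1448 in BLA, 2825 in BLA-A, 1407 in BLU and 1367 in BLU-A. Ldha (chr7:46490899-46505061), which turns pyruvate into lactate, was at 450.2 CPM in untreated cells, 406.0 in BLA, 721.3 in BLA-A, 387.2 in BLU and 361.9 in BLU-A. In both, the BLA-A library stood above the other 4, by log2 fold changes of 0.88 and 0.68 that did not pass 1. Its counterpart Ldhb had 35 to 56 counts per library and values between -0.26 and 0.28.

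Eno1 went the other way. Eno1 (chr4:150321073-150337027), the main enolase, was at 868.5 CPM in untreated cells, 730.1 in BLA, 422.1 in BLA-A, 772.6 in BLU and 741.4 in BLU-A. It was lowest in BLA-A, at a log2 fold change of -1.04, and was -0.98 there with DESeq2 size factors. GENCODE lists 4 transcripts of other genes with at least 95% identity to at least 50% of the Eno1 transcript, and Eno1b, the one in the count table, was at 0 in every library. The neuronal isoform Eno2 lay between -0.53 and 0.32.

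Gapdh and Aldoa cannot be read at face value. Gapdh (chr6:125135289-125143518), among the most abundant mRNAs of most cells and the reference gene in the RT-qPCR of the study, stood at only 12.9 CPM in untreated cells, 25.2 in BLA, 25.98 in BLA-A, 13.8 in BLU and 14.7 in BLU-A. Its log2 fold change was 0.94 in BLA and 0.98 in BLA-A. GENCODE lists 75 near-identical copies of its transcript, and reads that align to more than 1 place were not counted. Aldoa was at 0 in all 15 columns, and the gene Gm57854 covers 99.4% of its span on the same strand, where ambiguous reads were not counted. Their part in these levels was not tested. Near-identical copies were also found for Pgk1 and Ldha (2 each) and Pkm and Ldhb (1 each), and for none of the other 30 members. Of rows named as retrogenes of a member, Aldoart1 (aldolase) had 2.88 to 9.9 CPM.

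The regulators of flux showed no change past the threshold. Pfkfb3 and Pfkfb4, which make the phosphofructokinase activator fructose 2,6-bisphosphate, lay between -0.40 and 0.18. Pdk1, the kinase that restrains pyruvate dehydrogenase and a well known HIF1 target, was at 0.52 in BLA, -0.29 in BLA-A, -0.07 in BLU and -0.38 in BLU-A. It was thus higher in BLA and lower in BLA-A, unlike most HIF1 targets listed here.

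Hif1a (chr12:73948149-73996321) itself was at 301.2 CPM in untreated cells, 267.8 in BLA, 452.5 in BLA-A, 295.4 in BLU and 297.8 in BLU-A. It was above untreated cells only in BLA-A, at 0.59, and slightly below in BLA, at -0.17. The lncRNA gene Gm15283 covers the whole of its span on the opposite strand, at 213.9 CPM in untreated cells, and its log2 fold changes were close, at 0.49 in BLA-A and -0.30 in BLA. Egln1 and Egln3 encode the hydroxylases PHD2 and PHD3, which mark HIF1 alpha for degradation and are themselves HIF targets. Egln1 was at 0.54 in BLA and 0.97 in BLA-A, and Egln3 at 0.34 and 0.65, and both lay within 0.13 of untreated cells in the blueberry libraries.

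The berries were next compared directly, in 2 pairs of libraries that share none. This comparison was set up after the values were seen. BLA exceeded BLU and BLA-A exceeded BLU-A in 28 of 35 members (80%), against 22.1% of all genes. With scaling by total counts the number was 22 members (16.7% of all genes), and with scaling to Gapdh 5 members (1.86% of all genes). Both differences were negative in 1 member, Eno1, against 29.3% of all genes. The median difference of the members was 0.41 between the extracts and 0.81 between the nanoparticles, and those of all genes were -0.02 and -0.08. All 9 HIF1 targets were higher with blackberry in both pairs, 8 with scaling by total counts and 5 with scaling to Gapdh. Differences over 1 were found in 4 members between the extracts (4.25% of all genes) and in 12 between the nanoparticles (8.72% of all genes). The 12 include Adm, which the filter kept through BLA-A alone. Car9 (1.17 and 1.92) and P4ha2 (1.08 and 1.84) were over 1 in both pairs, where 0.438% of all genes were. Ndrg1 followed with 0.95 and 1.56. Each pair is 1 library against 1 library, so no test was possible within a pair.

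**Figure D3:**
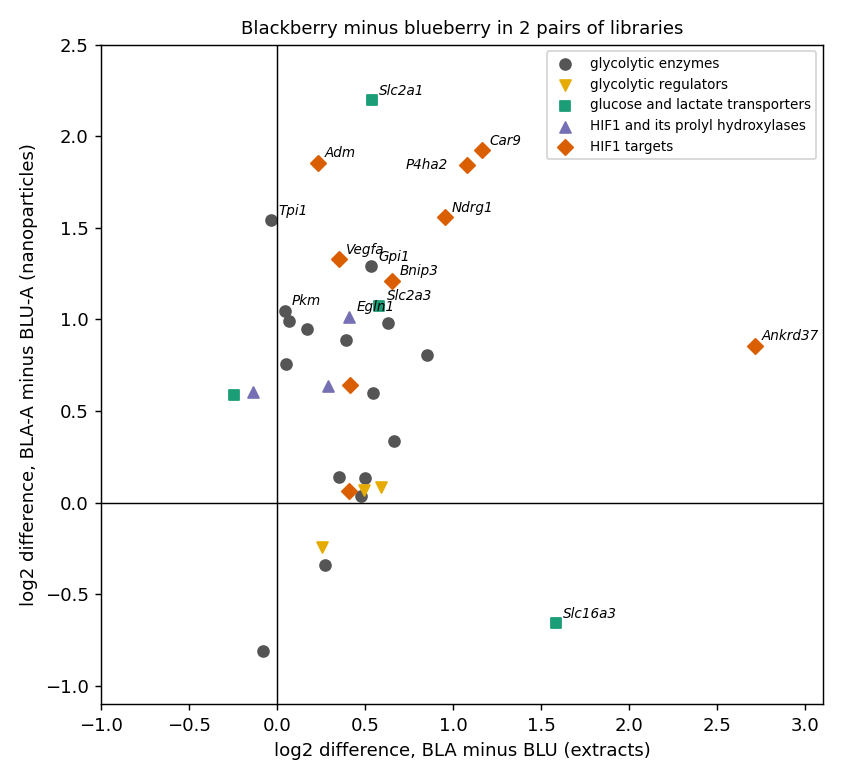
Log2 difference between blackberry and blueberry for the 35 members, with the extracts on the x axis (BLA minus BLU) and the nanoparticles on the y axis (BLA-A minus BLU-A), coloured by role and named where a difference is over 1 in size. Most members lie above and to the right of both zero lines, all 9 HIF1 targets among them with TMM scaling, and Eno1 alone lies below and to the left of both.

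The nanoparticles were also compared with the extract of the same berry. BLA-A exceeded BLA by over 1 in 3 members (11.6% of all genes) and was lower by over 1 in 1 member (13% of all genes). The 3 were Tpi1 (1.60), Slc2a1 (1.39) and Adm (2.58), and the 1 was Slc16a3 (-1.21). Of these, Adm was kept by the filter through BLA-A alone. The median of the members was 0.23, against -0.08 for all genes. BLU-A exceeded BLU by over 1 in 2 members, Ankrd37 (1.22) and Slc16a3 (1.02), and was lower by over 1 in 0 (2.89% and 3.8% of all genes). The HIF1 targets differed little between BLA and BLA-A for P4ha1 (0.06) and Bnip3 (0.12), more for P4ha2 (0.98) and Vegfa (0.90), and Kdm3a (-0.73) and Ankrd37 (-0.64) were lower in BLA-A.

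A second list of genes known as HIF targets, which shares no gene with the 9 above, was read the same way. Of 29 genes, 25 were kept, and their median log2 fold change was 0.68 in BLA, 0.57 in BLA-A, 0.10 in BLU and -0.06 in BLU-A. In BLA 21 of 25 lay above 0 and in BLA-A 22 of 25, against 17 in BLU and 11 in BLU-A. The genes past the threshold were higher in all cases, 5 in BLA and 5 in BLA-A (20% in each, against 7.91% and 8.55% of all genes higher). In BLA they were Ero1a (1.08), Higd1a (1.10), Angptl4 (1.88, on 12 counts in untreated cells), Kdm4c (1.05) and Gbe1 (1.41). In BLA-A they included Ddit4 (2.31), Car12 (1.04), Plod1 (1.53) and Hmox1 (2.49). The value of Car12 lies close to the threshold, and scaling by total counts moved genes in BLA-A by a median of -0.19. These 9 names were chosen after their values were seen.

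Ero1a, an oxidase of the endoplasmic reticulum, and Gbe1, the glycogen branching enzyme, were close to the threshold in BLA-A as well, at 0.95 and 0.96. Ddit4, an inhibitor of mTORC1 signalling, and Car12, a second membrane carbonic anhydrase, were below untreated cells in BLA, at -0.22 and -0.97. Hmox1, the haem oxygenase that also responds to oxidative stress, was at 0.96 in BLA.

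**Figure D4:**
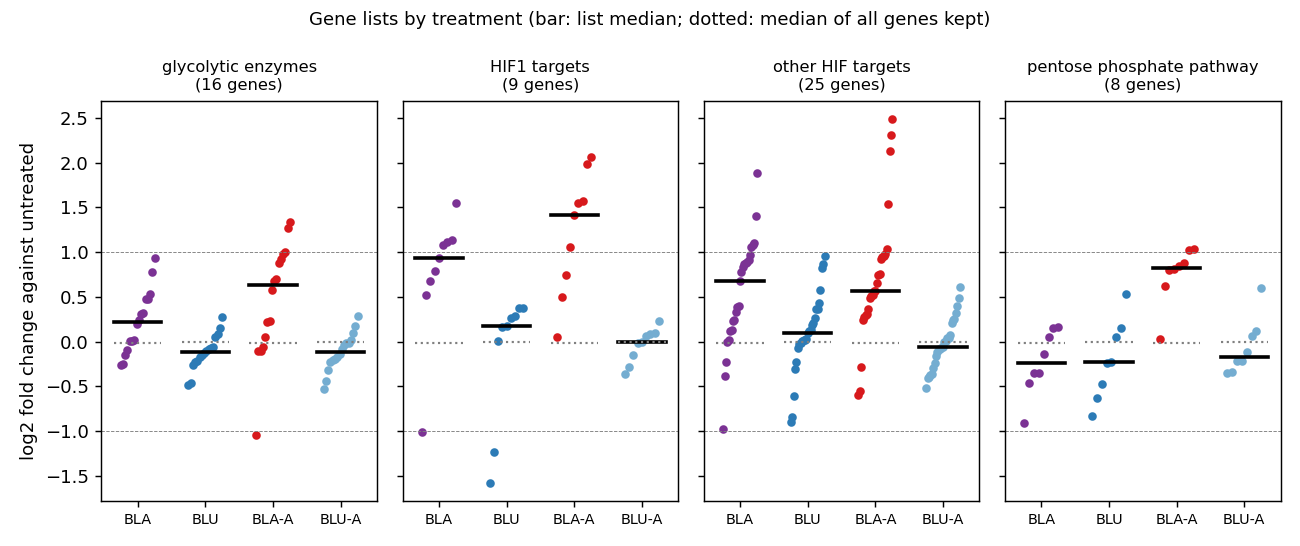
Log2 fold change against untreated cells (y axis) of the genes of 4 lists in each treatment, 1 point per gene, with a bar at the list's median and a dotted line at the median of all genes kept. The HIF1 targets have medians of 0.94 in BLA and 1.42 in BLA-A and of 0.17 and -0.01 in BLU and BLU-A, while the pentose phosphate genes have a median above 0 in BLA-A alone, at 0.83 (TMM scaling).

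Gene length moved with the treatments. Counting covered whole gene spans, introns included. Among genes with a mean of at least 10 CPM, the 1531 with a span under 10000 bases had a median log2 fold change of -0.36 in BLA and the 3166 over 50000 bases had 0.27. The medians in BLU were -0.27 and 0.24, and those in BLA-A were 0.21 and 0.11. The members of the 3 length classes had medians in BLA of 0.22 (4 genes under 10000 bases), 0.47 (19 genes between) and 0.48 (5 genes over 50000 bases), and in BLA-A of 0.52, 0.68 and 0.74. In both blackberry libraries the members' median was above that of all genes in each class. In BLU it was above in the shorter classes (-0.17 against -0.27, and -0.03 against -0.08) and below in the longest (-0.07 against 0.24). The part of gene length in the results above was not tested.

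The pathways that branch from glycolysis were taken from lists of the same kind. All 8 pentose phosphate genes kept were above untreated cells in BLA-A, with a median of 0.83 (7 of 8 with scaling by total counts and 2 with scaling to Gapdh). Of these, 2 passed 1, Pgd (1.03) and H6pd (1.04), which act in the oxidative branch that yields NADPH. They are 25% of the list, against 8.55% of all genes higher and 20.9% in either direction. Both values lie close to the threshold, and scaling by total counts moved genes in BLA-A by a median of -0.19. In BLA the pentose phosphate list had a median of -0.24. Of 11 genes for the entry of pyruvate into mitochondria, 2 were lower past the threshold in BLA-A (18.2%, against 12.3% of all genes lower) and 0 in each of the other treatments, with medians from -0.40 in BLA-A to -0.19 in BLU. Of 14 HIF pathway regulators kept, 1 was lower past the threshold in BLA-A and 1 higher in BLU (7.14% in each, against 12.3% of all genes lower and 5.64% higher). The 1 in BLU was Hif3a, on 3 counts in untreated cells. It reached 1 CPM in BLU alone, so the filter kept it only through the library where it was high. The partner subunit Arnt lay between 0.16 and 0.37 and Vhl, which recognises hydroxylated HIF1 alpha, between -0.58 and 0.07.

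Of 14 other glycolysis genes kept, 2 were lower past the threshold in BLA, 2 in BLA-A and 1 in BLU-A, and 0 were higher. Their shares were 14.3%, 14.3% and 7.14%, against 8.51%, 12.3% and 4.49% of all genes lower. In either direction 16.4%, 20.9% and 7.88% of all genes were past it. The shares of this list rest on 1 or 2 genes each. Galm, the galactose mutarotase, was at -1.02, -1.51 and -2.05 in these 3 treatments and at 0.18 in BLU, on 47 counts in untreated cells. Of 3 gluconeogenesis genes kept, G6pc3, a glucose 6-phosphatase subunit, was at -1.03 in BLA and -1.05 in BLU, and at 0.04 in BLA-A. Among 11 other glucose and monocarboxylate transporters, 3 were higher past the threshold in each of the 4 treatments, not the same 3 genes, and 1 was lower past it in BLA and in BLA-A. Their shares past it were 36.4% in BLA, 36.4% in BLA-A, 27.3% in BLU and 27.3% in BLU-A. Those of all genes were 16.4%, 20.9%, 10.3% and 7.88%. Among the genes higher past it, Slc16a7 (1.51 in BLU-A) and Slc2a12 (2.08 in BLU) had 13 and 35 counts in untreated cells. Slc16a7 reached 1 CPM in BLU-A alone, so the filter kept it only through the library where it was high. Slc16a4 was at 1.09 in BLA and 1.02 in BLU. Slc2a6 was at 1.04 in BLA, 1.59 in BLA-A and 1.32 in BLU-A on 6 counts in untreated cells. Slc2a13, which carries myo-inositol, was at -1.55 in BLA and -1.79 in BLA-A, from levels of only 0.51 and 0.36 CPM there.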

How the data were processed

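RNA-seq of 4T1 cells was read from deposited counts per gene, not normalized. The authors removed ribosomal RNA, aligned reads to GRCm39 with STAR and counted them by strand over whole genes in OmicsBox, leaving out multi-mapping and ambiguous reads. Deposited columns of the authors' own comparisons (fold changes, p-values, enrichment scores) were not used. DESeq2 1.36.0 is named in the submitters' processing notes.

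The members and lists were chosen with earlier results of these data known. The 3 columns of each condition were averaged where their chi-square per degree of freedom stayed below 1.5. Genes with 1 CPM in at least 1 library were kept and normalized by TMM in edgeR 4.0.16 (R 4.3.3). Treatments were compared with untreated cells by log2 fold change with no test, and 4 treated libraries with 1 untreated by the edgeR quasi-likelihood test, adjusted p under 0.05. DESeq2 1.42.0 was an alternative. Intervals of count ratios are exact binomial at 95%. All 36 members were named, with values per library for those past a log2 fold change of 1 with at least 10 counts, the 5 highest per length, Hif1a and Gapdh. Other lists' genes were named when past 1 in 2 treatments in the same direction with at least 10 counts, at most 6 per list. Some genes that met this rule or belong to a list are not reported here. Exceptions named after their values were seen are the genes of the second HIF list, Pgd, H6pd, Arnt, Vhl, Hif3a, Slc16a7 and Slc2a12. Positions and copies came from GENCODE M39 on GRCm39, and promoters from RefSeq on GRCm38.p6. The test was checked on simulated data with the same change in all 4 treated libraries. At a coefficient of variation of 0.45 it recovered 21% of 4-fold changes and 92% of 16-fold changes. At 0.1 it recovered 100% of both. Alternatives covered scaling, filter, pseudocount, column handling, test and left-out libraries.

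Column numbers did not pair the conditions: the deviations of same-numbered columns correlated at -0.00107 on average over 30 pairs.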

Additional observations from a re-analysis of the deposited data

Results flagged for a closer look

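In 6 members 1 of the 4 treated libraries lay far from the other 3, measured as its gap to the nearest library divided by the whole range. The BLA-A library stood apart for Tpi1 (0.964), Pkm (0.921), Hk1 (0.843) and Ldha (0.833), where it was the highest, and for Eno1 (0.906), where it was the lowest. The BLU-A library stood apart as the lowest for Eno2 (0.883). The limit used is Dixon's at 95%, and chance passes it in about 1 in 20 groups of this kind, of which 35 were examined. The enzymes for which BLA-A stood apart had BLA values near untreated cells. The share of all genes past this limit was not computed, and BLA-A also had the largest share of all genes past 1, at 20.9%. Whether BLA-A stood apart more often for the members than for other genes was therefore not tested.

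In 4 members the step from extract to nanoparticle ran in opposite directions in the 2 berries and differed between them by over 1. The difference between the berries in this step, on the log2 scale, was 1.006 for Pkm, 1.66 for Slc2a1, -2.24 for Slc16a3 and -1.85 for Ankrd37. Slc2a1 was higher with the nanoparticles of blackberry and lower with those of blueberry, and Slc16a3 and Ankrd37 the reverse. Each step is 1 library against 1 library, so these differences were not tested, and those of Slc16a3 and Ankrd37 rest on 16 to 190 counts per library. The share of all genes that met this rule was not computed.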

How the results depend on the processing

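No member's log2 fold change that had passed 1 reversed its sign under any alternative run, and the 0 members called by the quasi-likelihood test stayed 0 in each. Members past 1 numbered 5 in BLA, and 3 with 1 CPM required in every library or 2 with a pseudocount of 2 CPM. The 3 in BLU became 0 under both. The median of the members in BLA was 0.40, and -0.49 with scaling to Gapdh (whose own log2 fold change there was 0.94), 0.34 with 1 CPM in every library, 0.47 and 0.30 with pseudocounts of 0.1 and 2 CPM, and 0.34 to 0.39 with 1 replicate column left out. In BLU it was -0.07, and -0.083 by total counts, -0.12 by DESeq2 size factors, -0.16 by Gapdh and -0.057 with no filter. In BLA-A it was 0.68, and 0.48 by total counts, 0.72 by DESeq2 size factors, -0.33 by Gapdh, 0.76 with no filter and 0.59 with 1 CPM in every library. In BLU-A it was -0.04, and -0.063 by DESeq2 size factors, -0.22 by Gapdh and -0.021 with no filter. Scaling to Gapdh moved genes by a median of -0.93 in BLA and -0.97 in BLA-A. Without the BLA-A library the test called 29 genes and 0 members (smallest adjusted p of a member 0.497). With the 15 columns as samples it called 3538 genes and 0 members, and adding the replicate block gave 2489 genes and 0 members. The labels' replicate numbers pair nothing in the design, and same-numbered columns did not deviate together. Both fits of 15 columns had 13 members past 1 in BLA-A with an adjusted p under 0.05, where the main run had 11 past 1 with no test. These are unlike measures, and those adjusted p-values count the 3 columns of a condition as replicates. Of single member values, scaling to Gapdh took 11 below 1 and 11 past it, a pseudocount of 2 CPM took 8 below, and each other setting moved at most 5. Counts under 100 in at least 1 library limit Adm, Ankrd37, Slc16a3, Slc2a3, Ldhb and Car9.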
